A study of Mus musculus with 2 samples.

Results

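The genes described here encode the proteins of the cytosolic ribosome. They were chosen by name alone: a gene was a member if it had at least 1 probe set annotated to a single symbol made of Rpl or Rps, a number and, in some, a short suffix. This gave 45 of the 12393 genes on the array, 24 Rpl genes of the large subunit and 21 Rps genes of the small subunit, measured by 96 probe sets. Paralogues such as Rpl22l1, Rpl39l, Rpl3l, Rpl7l1, Rps27l and Rps4l are among them.

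Each ribosome holds a single copy of most of these proteins, bound to ribosomal RNA. The small subunit reads the mRNA, and the large subunit joins amino acids and releases the growing chain through a tunnel. Ribosomal protein mRNAs are among the most abundant of most cells, and their translation is held back or released as a group through a stretch of pyrimidines at their 5′ end, which the protein LARP1 binds under control of mTOR. In resting lymphocytes protein synthesis is low, and it is raised when antigen or mitogens activate the cells. Many of these genes have processed pseudogenes in the genome, which resemble the parent mRNA closely.

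The samples were B cells with surface IgM and IgD, sorted by flow cytometry from mouse spleen without genetic modification, the wild-type arm of a study of serum response factor (SRF). Both arrays belong to this 1 group and are called replicate 1 and replicate 2, in accession order. Strain, age and treatment are not given in the sources used here, nor is whether the samples came from separate animals, and SRF-deficient cells were not analysed here. With 2 samples of 1 group no test was possible. Differences are therefore described as log2 signal of replicate 2 minus replicate 1.

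The values are signals on a linear scale, 1 per probe set, from MAS5, a method that condenses the probes of a probe set and scales each array to a common mean. Replicate 1 had a median signal of 103 and replicate 2 one of 66.6. An expression floor was set on each array at the 90th percentile of 42 probe sets of 27 genes restricted to organs such as liver, brain or testis, which gave 157 and 87.7. Of 7 measured B cell markers 6 exceeded both floors, and Pax5, a factor of B cell commitment, gave 21.5 and 15.6. Cd79a, which signals for the B cell receptor, gave 2931 and 191.8, and Cd74, the invariant chain, 15712 and 7422. The other 4 B cell markers above the floor were higher on replicate 2 by the probe set of highest mean signal. Ighm gave 9959 and 15633, Ms4a1 3394 and 6347, Cd22 4313 and 5301.5, and Cd79b 2657 and 3129. Another Cd22 probe set gave 889 and 274. Of 25 measured markers of other blood cells and of plasma cells, 7 were above the floor, against 32.2% of all genes. The summed signal of the 25 was 3460 on replicate 1 and 4011 on replicate 2. The T cell genes gave 0 of 5 above the floor and the erythroid genes 0 of 3. The neutrophil genes gave 3 of 4, with summed signals of 717 and 926. The plasma cell genes gave 1 of 4, with 1002 and 2088. Most of that sum was 1 probe set of Xbp1, with 569 and 1539.5, while another of its probe sets gave 467 and 245. Prdm1 gave 222 and 42.2 and Sdc1 116 and 52.4. Jchain went the other way, with 94.7 and 453.5, above the floor of replicate 2 alone. No marker was listed at 0. The 3′ to 5′ signal ratio of the Actb control, a measure of RNA integrity, was 3.57 on replicate 1 and 8.15 on replicate 2. That of Gapdh was 1.31 and, with its 5′ signal set to the floor, 9.40. The control for the 5′ part of 18S ribosomal RNA gave 408 and 3395 and that for its middle 1005 and 7271. The part of cell makeup, of RNA integrity and of ribosomal RNA in the differences below was not tested, and in sorted bulk cells a smaller share of expressing cells cannot be told apart from less RNA per cell.

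The pyrimidine stretch that marks these mRNAs was looked for at the annotated transcription starts. Promoter windows of 300 bases, 250 before and 50 from the start, were available for 39 of the 45 genes from RefSeq (GRCm38.p6). The other 6 were Rpl7, Rpl8, Rps4l, Rps14, Rps20 and Rps29. In 7 of 39 genes, or 17.9%, an annotated start was a C followed by at least 4 more C or T without a break. The share was 3.01% of all 27025 genes with a window, whether or not they were on the array. The 7 starts are shown from 20 bases before to 10 bases from the start, 5′ to 3′ on the gene's strand, with the stretch in capitals, because they display the shared feature and its variety. The last 10 bases of each lie in the first exon.

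Rpl14: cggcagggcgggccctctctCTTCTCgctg

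Rpl35: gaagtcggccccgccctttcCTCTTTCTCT

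Rpl38: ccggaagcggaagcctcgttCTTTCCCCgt

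Rps6: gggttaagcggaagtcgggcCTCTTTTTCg

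Rps10: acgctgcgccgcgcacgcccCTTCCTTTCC

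Rps18: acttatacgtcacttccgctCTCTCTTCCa

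Rps27: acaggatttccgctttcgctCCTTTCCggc

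They lie at chr9:120571497-120571526 on the plus strand for Rpl14, chr2:39005122-39005151 on the minus strand for Rpl35, chr11:114668560-114668589 on the plus strand for Rpl38 and chr4:86857358-86857387 on the minus strand for Rps6. Rps10 and Rps18 lie on the minus strand at chr17:27635235-27635264 and chr17:33955656-33955685, and Rps27 on the minus strand at chr3:90213639-90213668. The stretch ran for 6 bases in Rpl14, 7 in Rps27, 8 in Rpl38, 9 in Rps6 and Rps18, 10 in Rps10 and 11 in Rpl35, where it passes the end of the window shown. A second sequence, CCGGAAGT, which the ETS family of factors is known to bind, was found on either strand in the windows of 9 of 39 members. This was 23.1%, against 4.31% of all 27025 genes with a window, which were not limited to genes of the array. In 3 genes, Rpl35, Rps6 and Rps18, a window held both, and the copies did not overlap the stretch. Annotated starts can lie some bases away from the start used in these cells, so a gene without the stretch here was not shown to lack it.

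Ribosomal protein genes were bright in both samples. Of the 45 genes, 40 had a probe set above the floor on both arrays, or 88.9%, against 32.2% of all genes. At 10 times the floor the counts were 31 of 45, or 68.9%, against 1.27% of all genes (157 of 12393), so that members made up 31 of those 157. By subunit, 20 of 24 Rpl genes and 20 of 21 Rps genes were above the floor, and 15 and 16 were over 10 times it. Mitochondrial ribosomal protein genes, which encode the separate ribosome of mitochondria, exceeded it in 48 of 74 cases, with 0 over 10 times the floor. Translation factor genes exceeded it in 38 of 52 cases, and 6 were over 10 times the floor. Signals of different probe sets depend on probe affinity and were not compared as amounts of RNA.

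**Figure D1:**
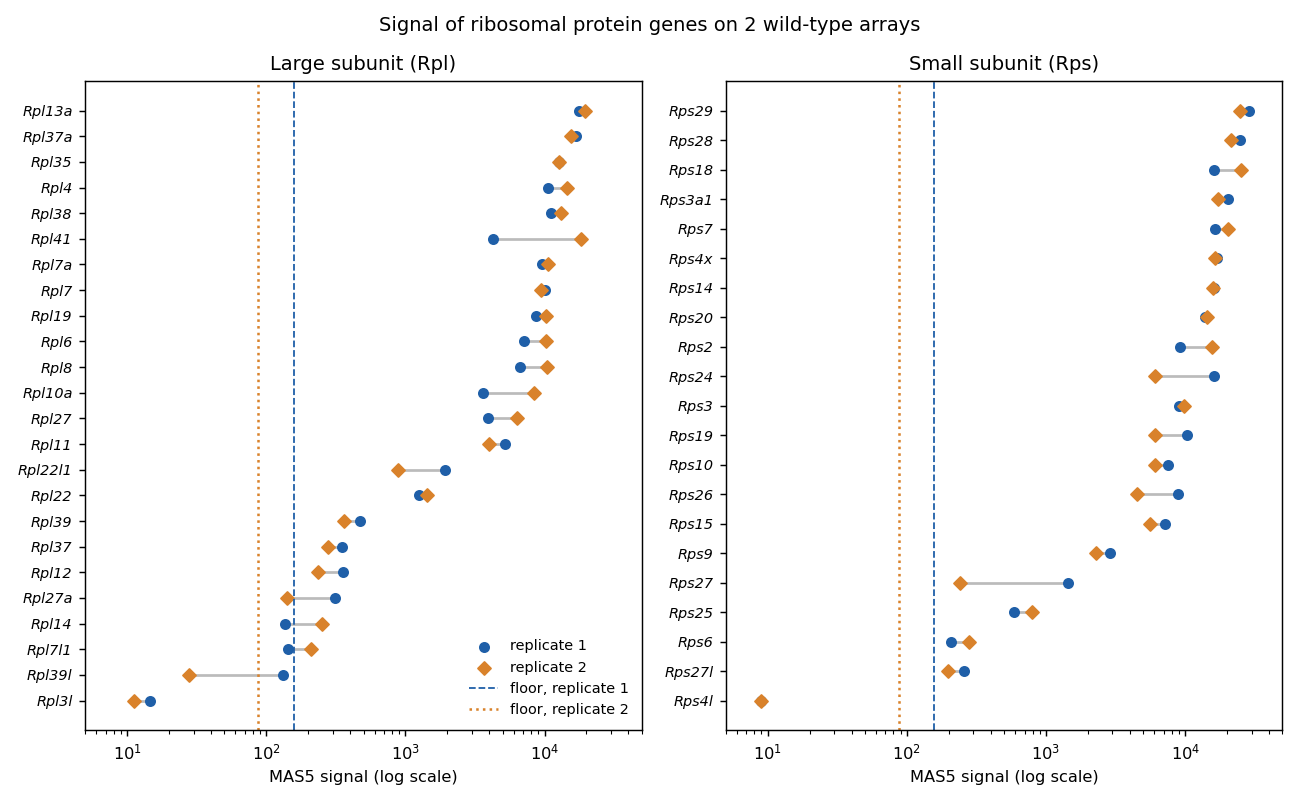
MAS5 signal (log axis) of each ribosomal protein gene on replicate 1 (blue circles) and replicate 2 (orange diamonds), for the probe set of highest mean signal, with Rpl genes on the left and Rps genes on the right. Vertical lines mark the floors, 157 on replicate 1 and 87.7 on replicate 2, and most genes lie far above both. Each signal of Rpl3l, Rpl39l and Rps4l lies below the floor of its own array.

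The signals of most members differed little between the samples. Of the 40 genes above the floor, 34 had signals within 2-fold between the arrays. Replicate 2 exceeded replicate 1 by over 2-fold in 2 genes, Rpl41 and Rpl10a, and replicate 1 exceeded replicate 2 in 4, Rps27, Rps24, Rpl27a and Rpl22l1. Over all 3986 genes above the floor the shares were 14.6% in favour of replicate 2 and 12.6% in favour of replicate 1, together 27.2%, against 6 of 40 here. This contrast rests on the probe set of highest mean signal. With the mean over all probe sets, 4 and 6 of the 40 members were over 2-fold apart, near the 9.83% and 16.3% of all genes. Among genes over 10 times the floor, 2 of 31 members favoured replicate 2 by that much and 2 replicate 1, against 16.6% and 7.01% of all 157 such genes, together 23.6%. Pooled over the 40 members, the SD of log2 signal across samples was 0.54, or 1.45-fold, against 0.66, or 1.58-fold, for all genes above the floor. Members had a median difference of -0.05 and all genes one of -0.00096, and the quartiles of the members were -0.36 and 0.33.

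**Figure D2:**
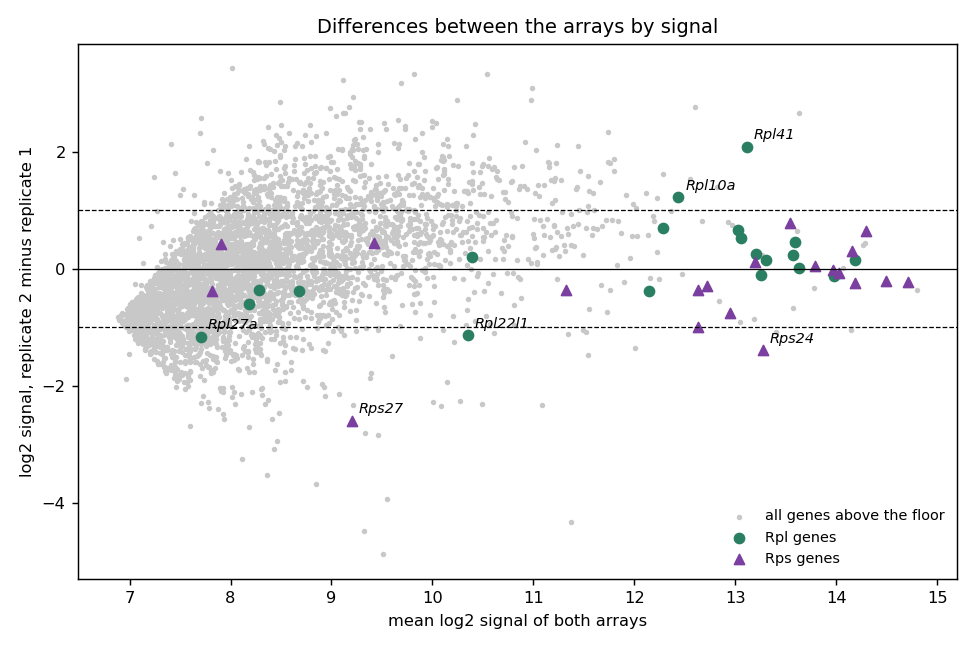
Log2 difference between the arrays (replicate 2 minus replicate 1) against the mean log2 signal, for all 3986 genes above the floor (grey), Rpl genes (green circles) and Rps genes (purple triangles); dashed lines mark 2-fold. The 6 named genes are those over 2-fold apart, and the other 34 members lie between the lines.

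The deposited scaling sets where 0 lies. Centring each array on its median moved the median of all genes above the floor by 0.63, from -0.00096 to 0.63. The median of the members then became 0.59, and their distance from the median of all genes stayed at -0.04. With that centring 10 members favoured replicate 2 by over 2-fold and 1 replicate 1, against 35.2% and 2.66% of all genes. With quantile normalization the counts were 2 and 5, against 10.5% and 10.5%.

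Small subunit genes were first compared by their place in the subunit. Of the proteins of the head, the part above the path of the mRNA, 9 of 14 listed genes were measured by probe sets of their own. All 9 were above the floor. By the probe set of highest mean signal, 9 of 9 lay within 2-fold, against 72.8% of all genes above the floor. Rps29, a zinc-binding protein of the head, gave 28933 and 24898 on replicates 1 and 2, a mean of 26915 ± 2853 (SD, n = 2). Rps28, near the mRNA exit, gave 24666 and 21463. Rps18, which touches the tRNAs, gave 16072 and 25115. These 3 were among the 6 brightest Rps genes, with Rps29 and Rps28 higher on replicate 1 and Rps18 on replicate 2 by the probe set used. Other probe sets of Rps29 gave differences of 0.33 and 0.14 and one of Rps28 0.37, and the mean over probe sets was 0.08 for Rps29 and 0.05 for Rps28. Rps20 gave 13896 and 14438, and Rps3, which lines the entry of the mRNA, gave 9005 and 9725. Rps19, the gene most often mutated in Diamond-Blackfan anaemia, gave 10260.4 and 6093, a 1.68-fold difference. The pooled SD over the 9 head genes was 0.29 by the probe set used. Another probe set of Rps15 gave 3173 and 915, a difference of -1.79, and another of Rps10 gave 7014 and 2890, -1.28. Both were above the floor, and all other such probe sets of head genes lay within 2-fold. Averaged over every probe set, Rps15 differed by -1.08 and Rps20 by -1.46. For Rps20 that average includes probe sets below the floor, and without them it was 0.36.

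Of the other Rps genes, which encode proteins of the body and platform, 10 were measured apart from Rps27l and Rps4l. By the probe set used 8 lay within 2-fold, close to the share of all genes, 72.8%. Rps9, among these 8, had another probe set above the floor with 239 and 2170. Rps3a1 gave 20281 and 17183, Rps7 gave 16501 and 20315, Rps4x gave 17064 and 16256, and Rps14, at the platform, 16141 and 15902. Rps2, near the mRNA entry, gave 9133 and 15677. The signals of Rps14 and Rps4x were nearly the same on both arrays, 1.02-fold and 1.05-fold apart. Rps24, a protein of the body, gave 15991 and 6105, a mean of 11048 ± 6991 (SD, n = 2) and 2.62-fold in favour of replicate 1. Rps26, which contacts the mRNA at its exit, gave 8948 and 4495, 1.99-fold apart and just inside the limit; with quantile normalization its difference was -1.15. Rps27, a zinc finger protein of the platform, gave 1444 and 239.5 by its only probe set of a single symbol, a mean of 842 ± 852 (SD, n = 2) and 6.03-fold higher on replicate 1. A brighter probe set annotated to Rps27 jointly with another symbol, which was assigned to neither, gave 30250 and 23326, 0.37 lower on the log2 scale on replicate 2. Rps6, the substrate of the S6 kinases, gave 207 and 277 by the brighter of its single-symbol probe sets. The other, below both floors, gave 92.8 and 9.2, and the mean over all probe sets was a difference of -1.46.

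Large subunit genes were grouped in the same way. At the tunnel and its exit, 5 of 9 listed genes were measured and 5 of 5 lay within 2-fold, against 72.8% of all genes. Rpl4, which reaches into the tunnel, gave 10525 and 14483. Rpl35, at the exit, gave 12608 and 12795, a difference of 0.02 on the log2 scale and among the 3 smallest of members above the floor, with Rps14 and Rps20. Another Rpl35 probe set gave 4473 and 2501, a difference of -0.84. Rpl19 gave 8612 and 10290.4, Rpl22 gave 1252 and 1435, and Rpl39, a short peptide of the tunnel wall, gave 469 and 359.6. Rpl11, which carries a small ribosomal RNA into the subunit together with Rpl5 and binds the p53 ligase Mdm2 when ribosome assembly fails, gave 5188 and 3973. Rpl5 had no probe set of a single symbol. By the probe set with the highest mean signal these genes lay at most 1.38-fold apart.

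At the interface of the subunits 3 of 6 listed genes were measured. Rpl41, a peptide so short that it is the smallest of the ribosome, gave 4291 and 18288, a mean of 11289 ± 9897 (SD, n = 2), and was 4.26-fold higher on replicate 2, the largest difference in that direction among members. Rpl8, next to the catalytic centre, gave 6640 and 10490.1. Rpl12, at the base of the stalk, gave 357 and 236. Rpl10a, of the stalk where tRNAs leave, was the other gene over 2-fold higher on replicate 2, with 3629 and 8460.3. Among the remaining genes, Rpl13a gave 17674 and 19592, Rpl37a gave 16832 and 15558, Rpl38 gave 11188 and 13224, Rpl7a gave 9578 and 10649, and Rpl7 gave 10104 and 9429. By the probe set used these 5 were close to equal, at 1.18-fold or less. Another probe set of Rpl37a gave 19211 and 3594, and another of Rpl13a gave 169 and 1059. Rpl27a was 2.23-fold higher on replicate 1, with 312 and 139.9. A probe set that lists Rpl27a with several other symbols gave 11524 and 9656.

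Rpl and Rps genes were then set against each other. The median difference was 0.15 for 20 Rpl genes and -0.21 for 20 Rps genes, a gap of 0.36. The pooled SD between the arrays was 0.52 for a single Rpl gene and 0.56 for a single Rps gene. The gap itself was not tested. Of the Rpl genes 12 were higher on replicate 2 and 8 on replicate 1, and of the Rps genes 7 and 13. The Rpl median changed sign with quantile normalization, to -0.04. Median centring, which adds the same 0.63 to every gene, put the Rps median at 0.42 and cannot change the gap. When each gene was represented by the mean of its probe sets above the floor, the medians were 0.0005 and -0.01 and the gap was 0.01. Over the reported setting and the alternatives the gap ranged from 0.01 to 0.39.

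**Figure D3:**
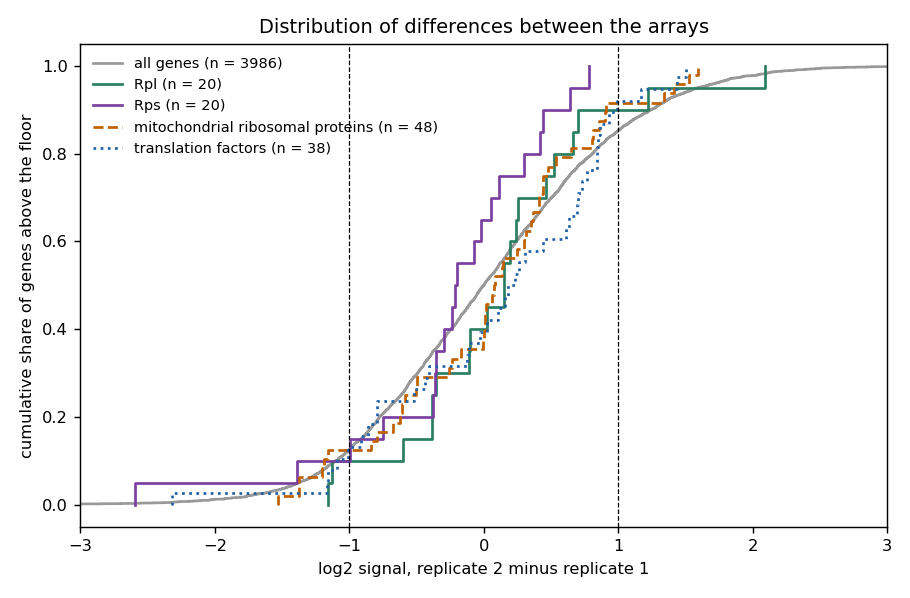
Cumulative share of genes above the floor by log2 difference between the arrays, for 20 Rpl genes, 20 Rps genes, 48 mitochondrial ribosomal protein genes, 38 translation factor genes and all 3986 genes. The curves of Rps and Rpl genes lie on either side of 0 at their medians of -0.21 and 0.15 and overlap over most of their range.

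The closest gene groups on the array were examined in the same way. Of 48 mitochondrial ribosomal protein genes, 4 favoured replicate 2 and 6 replicate 1 by over 2-fold, with a median difference of 0.08. Of 38 translation factor genes the counts were 3 and 5, with a median of 0.20. Over all genes the shares were 14.6% and 12.6%. The middle 50% of genes spanned 0.69 on the log2 scale for the cytosolic ribosomal proteins, 0.98 for the mitochondrial ones, 1.26 for translation factors and 1.25 for all genes. These differences in width were not tested.

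Paralogues of ribosomal proteins were set beside the gene they resemble. Rpl22, an RNA-binding protein required for normal lymphocyte development in mice, and its paralogue Rpl22l1 were both above the floor. Rpl22 gave 1252 and 1435, while Rpl22l1 gave 1929 and 884 and was 2.18-fold higher on replicate 1. The differences of this pair were 0.20 and -1.13, so they lay on opposite sides, although another Rpl22 probe set above the floor gave 195 and 125, a difference of -0.64. Rps27l, which p53 is known to induce, gave 257 and 198 and was above both floors, as was Rps27, with a difference of -0.38 against -2.59 for the single-symbol probe set of Rps27. A second Rps27l probe set above the floor gave 173 and 281, in the opposite direction. Rpl39l, a paralogue enriched in testis, gave 131 and 27.7 and was below the floor on both arrays, while Rpl39 was above it on both. Rpl3l, expressed in striated muscle, gave 14.6 and 11.2. Rps4l gave 8.9 and 9, while Rps4x was above the floor on both. Rpl7l1 gave 142.5 and 209.9, above the floor on replicate 2 alone. Of the 6 paralogue genes, 4 were not above the floor on both arrays, and of all genes 32.2% were, so that nothing is read from this count. The other member in that position was Rpl14, with 137 and 252.

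Probe sets of the same gene often disagreed. Of the 45 members, 22 had more than 1 probe set, and 18 had at least 2 that exceeded both floors. All probe sets lay on the same side of 0 in 9 of these 18, or 50%, against 48.7% of 952 such genes on the whole array. The median span between a gene's probe sets was 0.97 for the members and 1.03 for all genes, and 9 of 18 members spanned over 2-fold, against 491 of 952 genes. In 0 of 18 was 1 probe set over 2-fold higher on replicate 2 and another over 2-fold higher on replicate 1. For all genes the count was 46 of 952, a share so small that nothing is read from the 0.

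Rps24 and Rpl41 each had 1 direction in all their probe sets above the floor. The 4 of Rps24 were lower on replicate 2, by log2 differences from -2.33 to -0.87, with signals such as 8212 and 1636 or 9786 and 2861. The 3 of Rpl41 were higher on replicate 2, by 0.98 to 2.09, and another one, below the floor of replicate 1, gave 148 and 289. Rpl27 gave 3904 and 6335, 2086 and 3438, and 965 and 2559.5, all higher on replicate 2 and 1 of them over 2-fold. By contrast Rpl37a, nearly equal by the probe set used, gave 19211 and 3594 by another, a difference of -2.42. Rps9 gave 2902 and 2273 by its brightest probe set and 239 and 2170 by a second, differences of -0.35 and 3.18. Rpl13a gave 169 and 1059 by its dimmest probe set, a difference of 2.64 against 0.15. Rps15 gave 7173 and 5593, and 3173 and 915. Rps10, with 5 probe sets above the floor, ran from -1.28 to 0.47.

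**Figure D4:**
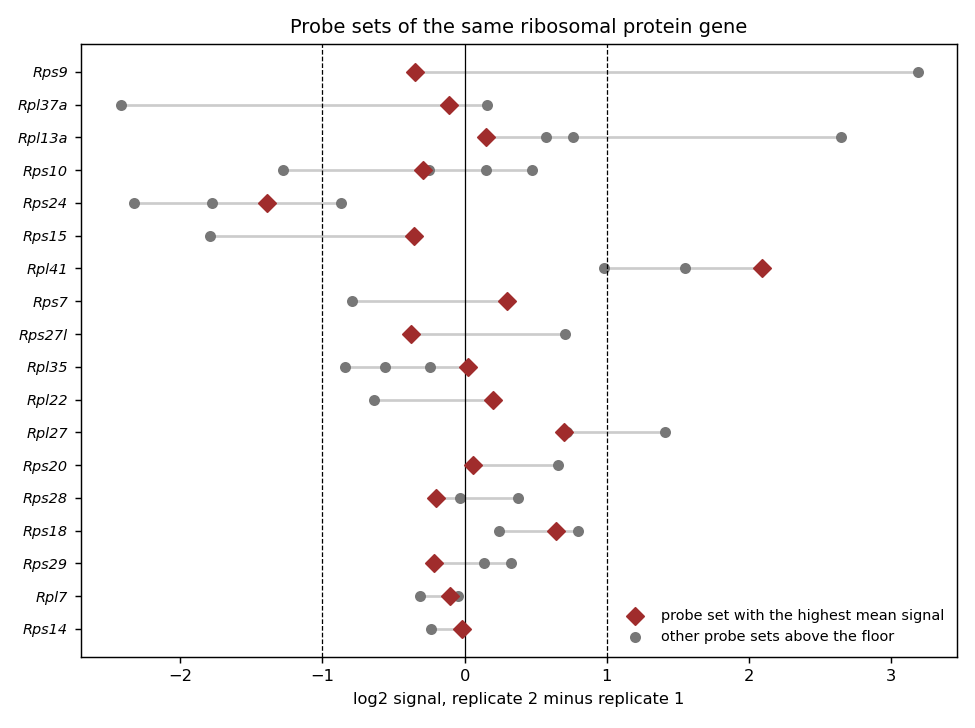
Log2 difference between the arrays for each probe set above the floor of the 18 members with at least 2 such probe sets; red diamonds mark the probe set with the highest mean signal, grey circles the others, and dashed lines 2-fold. Rps24 lies wholly below 0 and Rpl41 wholly above it, while Rps9, Rpl37a and Rpl13a each have 1 probe set far from the red diamond.

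The kind of probe set differed from the rest of the array. Of the 96 member probe sets 40, or 41.7%, end in _x_at, a class whose probes can hybridize to other transcripts, against 6.29% of all single-gene probe sets. The one with the highest mean signal was of this class in 14 of 45 genes, and 5 genes had no other kind. Over the array, 150 of 519 _x_at probe sets above the floor favoured replicate 2 by over 2-fold and 43 replicate 1, with a median of 0.46. For the members the counts were 4 and 3 of 37, with a median of 0.06. Without this class 32 of 40 genes exceeded both floors, and of these 32, 1 favoured replicate 2 by over 2-fold and 4 replicate 1. The shares of all 3858 genes above the floor in this setting were 13.2% and 12.8%. Rpl41 then gave 0.96 and Rpl37a -2.42. The probe sets of Rps24 above the floor were all of this class. Without them no probe set of Rps24 exceeded both floors, so that Rps24 was no longer among the genes over 2-fold apart. Its brighter remaining probe set gave 159 and 85.6 and the other 114 and 111.7.

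A further 101 probe sets carry a ribosomal protein symbol of the same form together with other symbols, mostly pseudogenes, and were assigned to no gene. Of these, 86 exceeded both floors, against 5304 of all 20380 single-gene probe sets. Over 10 times the floors were 73, a count with no share of all probe sets to set beside it. Within 2-fold lay 67 of the 86, and 10 favoured replicate 2 and 9 replicate 1 by more, near the shares of all single-gene probe sets above the floor, 13.8% and 13.2%. They bear on the dim members. Of the 14 members not over 10 times the floor, 8 (Rpl12, Rpl14, Rpl27a, Rpl37, Rpl39, Rps6, Rps25 and Rps27) also occur in such a joint probe set that was over 10 times the floor on both arrays. The values given here for these 8 genes are those of their single-symbol probe sets alone. Another 26 ribosomal protein symbols occur only in joint probe sets and are not among the 45.

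Genes that cause Diamond-Blackfan anaemia when 1 copy is lost, which are known for a failure of red cell production, were measured in 9 of 14 listed cases. All 9 were above the floor, against 32.2% of all genes. By the probe set used, 8 of the 9 were lower on replicate 2 and 1, Rps7, was higher, with a median of -0.38. Over 2-fold apart were 2 of the 9, Rps24 and Rps27, against 27.2% of all genes above the floor. The other probe set of Rps7 gave 8460 and 4878, a difference of -0.79, and the mean over both was -0.25. Rps28 and Rps29, among the 8, were higher on replicate 2 by the mean over probe sets, by 0.05 and 0.08. Probe sets of Rps10 above the floor ran from -1.28 to 0.47. A joint probe set that carries the Rps7 symbol and was assigned to no gene gave 12576 and 1574. Over all genes above the floor, 1993 of 3986 were lower on replicate 2. With median centring 4 of the 9 were lower, with a median of 0.25, against 972 of 3986 genes with a median of 0.63. With quantile normalization 7 were lower, with a median of -0.69, against 2086 of 3986 genes with a median of -0.05.

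Ribosomal proteins outside the naming rule were bright too. Rpsa, at the mRNA exit, gave 17082 and 22665, and Rplp2, of the stalk that recruits translation factors, gave 17124 and 17253. Fau, which encodes a ubiquitin-like protein fused to a small subunit protein, gave 3688 and 5487. Rplp0, the base of the stalk, gave 3521 and 10232.5, 2.91-fold higher on replicate 2. All 4 measured genes of this list were above the floor, against 32.2% of all genes.

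Genes of ribosome production were dimmer. Of 38 measured biogenesis genes 28 were above the floor, against 32.2% of all genes. Of the 28, 1 favoured replicate 2 and 5 replicate 1 by over 2-fold, against 14.6% and 12.6% of all genes above the floor. Those over 10 times the floor were Nop10, of the pseudouridylation complex, with 1807 and 2688, and Npm1, a nucleolar chaperone, with 1737 and 1939. Nop56, of the methylation complex, was 2.08-fold higher on replicate 2, with 342 and 710.4. Fbl, the methyltransferase of that complex, was 2.10-fold higher on replicate 1, with 790 and 377, and its other probe set agreed in direction, with 714 and 139. Rrp1 and Rrs1, of large subunit assembly, were 3.78-fold and 3.67-fold higher on replicate 1, Senp3 2.19-fold and Ltv1, of small subunit assembly, 2.18-fold. The list median was 0.12.

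Of 11 RNA polymerase I genes, which serve ribosomal RNA synthesis, 6 were above the floor, against 32.2% of all genes. Polr1c was 2.79-fold higher on replicate 2 by 1 of its 2 probe sets, with 227 and 635. Of 7 measured genes that control ribosomal protein mRNAs 5 were above the floor. Larp1, the binder of the pyrimidine stretch, gave 505 and 511, and Mtor 369 and 349. Another Mtor probe set, below the floor of replicate 2, gave 160.6 and 25.8. Mdm2 gave 336 and 129, 2.59-fold higher on replicate 1. Over 2-fold apart were thus 1 of the 6 RNA polymerase I genes and 1 of these 5, against 27.2% of all genes above the floor. Myc, an activator of ribosome production, exceeded the floor of replicate 1 only, at 661 and 77.3.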

How the data were processed

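RNA of sorted splenic B cells was hybridized to 1 expression array per sample, from 6 µg of total RNA per the labels' protocols. The deposited values are signal intensities, made by the authors with MAS5, as the submitters' processing notes say; its version and parameters are not given in the sources used here. The trimmed mean was 150.0 on both arrays (2% trimmed at each end). Of 22626 gene probe sets, 20380 named 1 gene in the platform annotation and were used, 691 named several and 1555 none. All 45 symbols matched RefSeq by Entrez identifier.

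The probe set of highest mean log2 signal stood for a gene, which counted as above the floor if any probe set was, on both arrays. Log2 differences use the deposited signals without further normalization, and over 2-fold is the limit for counts. The 42 organ-restricted probe sets left 2 above the floor on both arrays. Counting was tested on simulated data. Members, lists and named genes (the 6 brightest Rpl and Rps genes, genes over 2-fold apart or below the floor, paralogues, the 3 smallest differences) were chosen with earlier results of these data known. Other genes named, such as Rps26, Rps9, Rps15, Rps10 and Rpl27, were chosen after their values were seen. Alternatives varied the floor, scaling, pseudocount (32) and probe set. The number of arrays limits the precision. Python 3.11.15, pandas 2.3.3 and numpy 2.4.6 were used.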

Additional observations from a re-analysis of the deposited data

How the results depend on the processing

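The count of 40 members above the floor became 40 with a floor at the 95th percentile, 42 at the array median and 45 with no floor; it was 40 on replicate 1 alone and 42 on replicate 2 alone, and 32 of 40 genes without _x_at probe sets. Leaving out a sample leaves no difference to compute. The count over 2-fold higher on replicate 2, 2 as reported, was 10 with median centring, 1 without _x_at probe sets, and 4 with the mean over all probe sets or over those above the floor. The count higher on replicate 1, 4 as reported, was 1 with median centring, where 3 of the 6 genes over 2-fold apart were still so, and between 3 and 6 in the other settings. Averaging all probe sets gave 4 and 6 members on replicates 2 and 1, against 9.83% and 16.3% of all genes. Averaging those above the floor gave 4 and 5, against 9.58% and 12.4%. With these 2 settings the shares of members were near those of all genes. The floor cannot change a gene's own difference. Over the other 6 alternatives the 30 named genes gave 172 values. Of these, 14 moved by more than 0.66, the pooled SD of all genes, and 0 reversed among genes over 2-fold apart. Many of the 172 could not move. Median centring adds 0.63 to every gene, less than 0.66, and averaging probe sets cannot change a gene with 1 probe set. The count of 14 is therefore no measure of stability. Signals near the floor are the least certain, and with 2 arrays a difference has no error of its own.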
